A study of Mus musculus with 2 samples.

Results

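The regions described here are the 487 Sox4 peaks for which the deposited peak list names no gene, out of 8730 peaks in all (5.58%, exact 95% interval 5.11 to 6.08%). They were chosen by 1 rule, that the position class and the list of genes are both empty. The same 487 rows had either column empty. The largest distance from any other peak to the nearest transcript listed for it was 24986 bp, so an empty entry means that no RefSeq transcript of the authors' annotation lay within about 25 kb. They are called gene-distant peaks below. Together they covered 425432 bp and held 35857 of the 763284 tags (reads counted in peaks) of the list, or 4.70%.

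The peaks come from 1 library of chromatin captured on streptavidin beads (bioChIP). The cells were progenitor B cells from the fetal liver of C57BL/6 embryos, which had received, one after another, retroviruses carrying BirA (an enzyme that attaches biotin), the p190 Bcr-Abl oncogene, SE-Cre and BAP-tagged Sox4, with a sort after each step. The series also has 1 input library of the same cells, so tagged Sox4, Bcr-Abl and Cre are common to both. Animal age beyond the embryonic stage is not given in the labels. Sox4 was therefore tagged and delivered by a retrovirus, the cells were immortalized, and 1 culture stands for the condition. A pull-down without tagged Sox4 was not analysed here, nor were transcript levels, so the cell label could not be checked on marker expression. With 1 library there is no replicate check and no test between conditions. Intervals below cover counting error or the spread between peaks only.

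Sox4 is a transcription factor of the SOX family, which contacts DNA through an HMG box and bends it. It is needed for early B-cell development. Sequence far from gene starts can hold enhancers, which act on promoters over long distances, as well as unannotated starts of genes and, around the antigen receptor loci, gene segments that are assembled only in lymphocytes. A peak in such sequence does not by itself tell which gene, if any, it acts on. The genes named below are those assigned to the nearest peaks of the list on either side, and they serve as landmarks. A gene without a peak can lie closer.

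The typical gene-distant peak had a fold near that of the whole list, and a few were among its strongest. The median fold of gene-distant peaks over the background expected by the peak caller was 4.50 (quartiles 3.93 and 5.65). Their folds ranged from 2.17 to 41.2, and the median over all 8730 peaks was 4.43. Gene-distant peaks held a median of 59 tags (quartiles 46.5 and 86, range 29 to 440) over a median width of 794 bp. Over the list these medians were 71 tags and 911 bp. The median score, which is minus 10 log10 of the caller's p-value, was 84.8, and 104.9 over the list. Of the 487 peaks, 32 had folds of at least 10, or 6.57% (4.54 to 9.15%), where the share over all 8730 peaks was 4.39%. At least 8 was found for 49 (10.1%, background 7.41%), at least 15 for 11 (2.26%, background 2.08%) and at least 20 for 6 (1.23%, background 0.951%). A score of 100 or more was reached by 199 of them (40.9%, 36.5 to 45.4%), against 52.8% of all peaks, and a score of 500 by 18 (3.70%, 2.20 to 5.78%), against 4.81%. The interval lay above the list's share for folds of 8 and 10, contained it for 15, 20 and a score of 500, and lay below it for a score of 100.

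Width bears on this contrast, since tags were counted over the whole peak. Across the 487 peaks, tags and width had a Spearman correlation of 0.93, while fold and width had one of 0.19; these values describe peaks that share 1 library. Promoter peaks, which overlap or lie near annotated gene starts, are the widest class of the list. Among peaks 700 to 1000 bp wide, the median fold was 4.64 for the 247 gene-distant peaks (95% interval of the median 4.39 to 4.85) and 4.62 for the 468 intronic peaks (4.39 to 4.83). It was 4.43 for the 247 upstream peaks (4.25 to 4.58), which lie before a gene within 25 kb, and 4.28 for the 2650 promoter peaks (4.22 to 4.33). The interval of gene-distant peaks overlapped those of intronic and upstream peaks and not that of promoter peaks. In this width range the scores lay close together, with medians of 88.6 for gene-distant and 90.2 for promoter peaks.

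At a shared width, the upper end of the fold differed mainly from that of promoter peaks. Between 700 and 1000 bp, 19 of 247 gene-distant peaks reached a fold of 10 (7.69%, 4.69 to 11.8%), compared with 22 of 468 intronic peaks (4.70%, 2.97 to 7.03%) and 8 of 247 upstream peaks (3.24%, 1.41 to 6.28%). Of the promoter peaks it was 26 of 2650 (0.98%, 0.64 to 1.43%). At this width the gene-distant interval overlapped the intronic and upstream ones and not that of promoter peaks. High-fold promoter peaks were mostly wider than this range. The 256 promoter peaks with a fold of 10 or more had a median width of 1444.5 bp (1365 to 1504 bp), and the 32 such gene-distant peaks had one of 929 bp (911 to 1099 bp). Over all widths the intervals for promoter peaks (4.15%, 3.66 to 4.68%) and gene-distant peaks overlapped. The difference of shares is thus seen at a fixed width and was not tested over libraries.

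**Figure D1:**
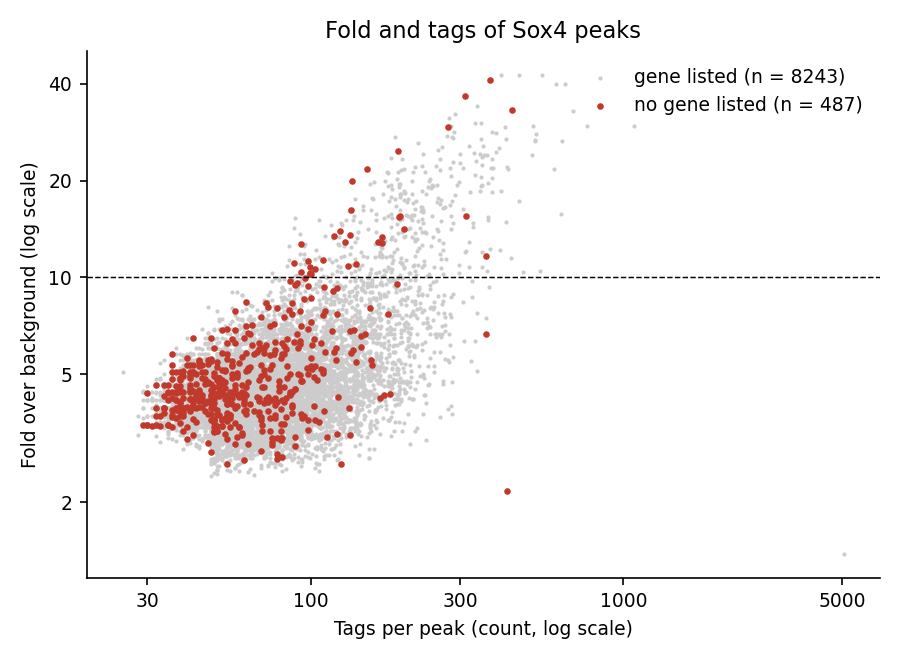
Each point is 1 peak, placed by its tag count (horizontal, log scale) and its fold over background (vertical, log scale). The 487 gene-distant peaks are red and the other 8243 grey, and the dashed line marks a fold of 10, which 32 red points reach. The lowest red point lies at 425 tags and a fold of 2.17.

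Gene-distant peaks also had central summits. The summit lay in the middle of 3 equal parts of the peak in 415 of 487 (85.2%, 81.7 to 88.2%), in 83.6% of intronic peaks (80.9 to 86.0%) and in 72.3% of promoter peaks (71.1 to 73.4%). At widths of 700 to 1000 bp these shares were 92.3% (88.2 to 95.3%), 91.0% (88.1 to 93.5%) and 87.0% (85.6 to 88.2%). The gap to promoter peaks was smaller there, from 85.2 against 72.3% to 92.3 against 87.0%.

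Among the 100 peaks of the list with the highest fold, 7 had no gene listed (7%, 2.86 to 13.9%), and among the 100 with the highest score 4 (4%, 1.10 to 9.93%). The share over all peaks was 5.58%. The 10 highest by score and the 10 highest by tags all had a gene listed. Of the 10 peaks with the highest fold in the whole list, 3 had no gene listed (30%, 6.67 to 65.2%). The highest of them, at chr6:37682022-37683124 (mm9), reached 41.2-fold with 374 tags (337 to 414, exact Poisson 95%) and scored 2771, rank 4 by fold and rank 13 by score among 8730. A second gene-distant peak lay 7.91 kb to its left (192 tags, fold 15.45). The nearest peak with a gene was the promoter peak of Trim24, which encodes a chromatin-reading cofactor, 137 kb away on the upstream side of that gene. On the other side the next was the Nup205 promoter peak at 2554 kb, and the RefSeq gene table of a later assembly places 9 coding genes between the 2 landmarks.

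Next by fold came the peak at chr15:36809039-36810224, with 312 tags (278 to 349) and a fold of 36.5, ranking 7. It lay between the promoter peaks of Ywhaz (84.5 kb), which encodes the adaptor protein 14-3-3 zeta, and Zfp706 (127 kb), with no coding gene between them in the table. The peak at chr1:88383577-88384846 had the most tags of all gene-distant peaks, 440 (399.8 to 483), at a fold of 33.2, ranking 9. A peak in the upstream class of Ptma, the gene of prothymosin alpha, lay 14.8 kb from it. Both these intervals were short, with landmarks on either side and no coding gene between them, unlike the long interval on the left of the chromosome 6 peak.

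Close to Myb, which encodes a regulator of blood progenitors, a gene-distant peak was stronger than the peak at the gene itself. The peak at chr10:20906192-20907286 lay 24.8 kb from the Myb promoter peak on the upstream side of the gene. It reached 29.4-fold with 275 tags (243 to 309), scored 1579 and ranked 19 by fold. The promoter peak of Myb reached 8.70-fold with 203 tags and scored 521. On the far side the next peak with a gene was that of Sgk1 at 806 kb, and Hbs1l and Aldh8a1 are placed between Myb and Sgk1 in the gene table.

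The other peaks among the 10 with the highest fold ran from 24.7 to 15.48. At chr15:63459922-63460843 a fold of 24.7 (190 tags, 164 to 219) was found in the interval between Myc and Fam49b, 1641 kb from the flanking Myc peak and 368 kb from that of Fam49b. The peak at chr6:51333745-51334598 (fold 21.7, 151 tags) lay 84.1 kb from the promoter peak of Hnrnpa2b1, the gene of an RNA-binding protein. The peak at chr13:44057130-44058052 (fold 19.9, 135 tags) lay in a wide interval, 401 kb from the Ccdc90a and 767 kb from the Jarid2 promoter peak, and the table places Rnf182 and the gene of the B-cell surface protein CD83 between these. At chr17:27395714-27396610 the fold was 16.2 (134 tags), with Lemd2 at 53.9 kb. A broad peak of 2044 bp at chr9:96337559-96339603 (fold 15.5, 314 tags) lay 72.4 kb from the promoter peak of Atp1b3. At chr4:8837988-8839255 (fold 15.48, 193 tags) the nearest peak with a gene, 38.4 kb away, lay at the end of Chd7, which encodes a chromatin remodeller.

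High scores without a fold of 10 came from wide peaks. The peak at chr4:133368759-133371456 was 2697 bp wide and held 363 tags at 6.67-fold, scoring 964. It lay 54.9 kb from the promoter peak of Arid1a, a BAF remodelling subunit gene, on its upstream side. Of the 10 gene-distant peaks with the highest scores, 1 was on chromosome 18 and is counted only. At chr19:41556508-41558591, a width of 2083 bp gave 171 tags at a fold of 4.31, with the nearest landmark Pik3ap1, the gene of a B-cell adaptor for PI3-kinase, 96.3 kb away. The lowest scores, 50.03, 50.08 and 50.14, lay at or just above the list's minimum and belonged to peaks of 33, 42 and 38 tags on chromosomes 7, 3 and 11.

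Peaks just inside the 25 kb limit had medians close to those of the peaks beyond it. The list has 62 peaks whose nearest listed transcript was 20 to 25 kb away. Their median fold was 4.625 (range 2.67 to 24.3), their median tag count 55 and their median score 83.8. A fold of 10 was reached by 6 of the 62, where the shares were 6.57% of gene-distant peaks and 4.39% of all peaks.

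The nearest peak with a listed gene was a median of 95.2 kb away (quartiles 53.2 and 190 kb, range 0.755 to 4503 kb). For 344 of the 487 it was a promoter peak (70.6%, 66.4 to 74.6%), the class that makes up most of the list. The side relative to the gene was known for 390 peaks, of which 222 lay upstream and 168 downstream (56.9% upstream, 51.8 to 61.9%). From a promoter peak, a gene-distant peak downstream must lie past the gene body and 25 kb more. One upstream need only lie past 25 kb. The rule itself thus favours the upstream side, and this share is not a result. The 222 had a median fold of 4.65 (4.39 to 4.85) and the 168 one of 4.32 (4.16 to 4.50), and these intervals overlap.

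The median fold was 4.55 for the 103 peaks under 50 kb from the nearest peak with a gene, 4.43 for the 272 peaks at 50 to 200 kb and 4.595 for the 112 peaks beyond. Median scores in that order were 89.8, 85.8 and 76.3, and median tag counts were 64, 60 and 54, both lower with distance. The share with a fold of 10 or more was 8.74% (4.07 to 15.9%), 6.99% (4.26 to 10.7%) and 3.57% (0.98 to 8.89%) in the same order, with overlapping intervals. None of the 13 peaks at 1000 kb or more reached that fold (upper limit 24.7%), and their folds ran from 3.45 to 7.86.

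The nearest other peak of any class lay a median of 49.8 kb away (95% interval of the median 42.6 to 55.4 kb). For upstream peaks it was 15.6 kb, for intronic peaks 19.1 kb and for promoter peaks 36.6 kb. The rule itself keeps gene-distant peaks away from promoter peaks, so neither their wider spacing nor the class of their near neighbours is a result. Another peak within 10 kb was found for 105 of the 487 (21.6%, 17.99 to 25.5%), compared with 25.8% of all peaks, and within 50 kb for 244 (50.1%, 45.6 to 54.6%), compared with 62.6%. Within 50 kb 173 had another gene-distant peak (35.5%, 31.3 to 39.95%). These 173 had a median fold of 4.50 and the 314 others one of 4.485, and a fold of 10 was reached by 16 in each set, which is 9.25% (5.38 to 14.6%) and 5.10% (2.94 to 8.14%).

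**Figure D2:**
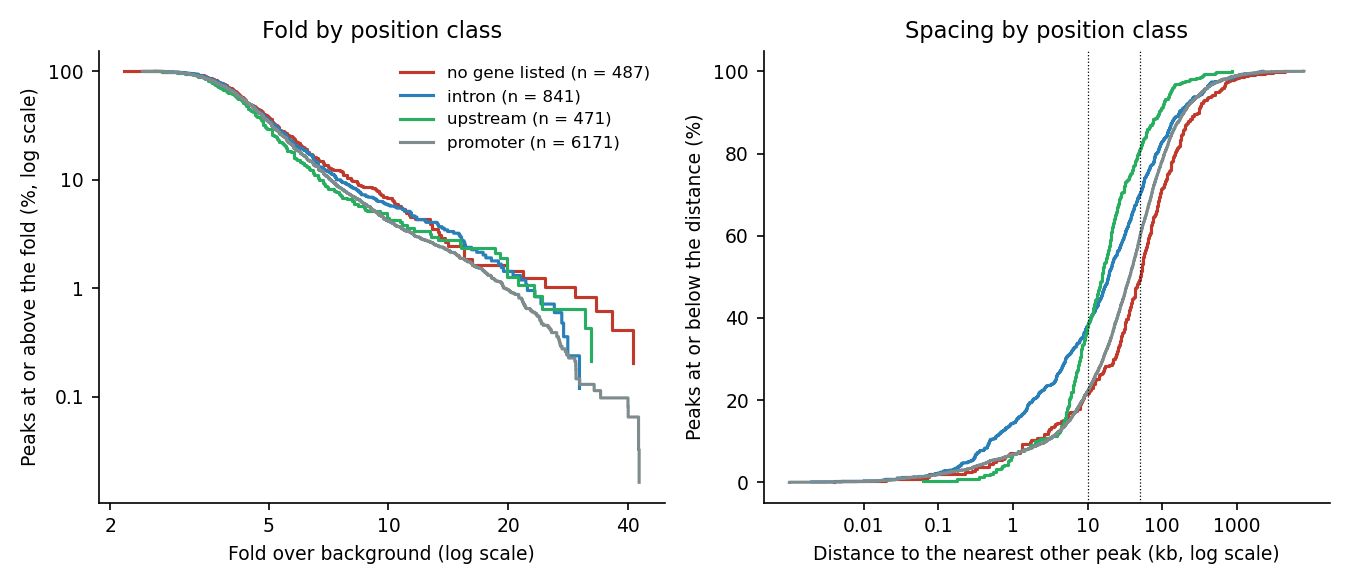
Left, the percentage of peaks (vertical, log scale) at or above each fold (horizontal, log scale) for 4 position classes. Right, the percentage of peaks whose nearest other peak lies at or below each distance (kb, log scale), with dotted lines at 10 and 50 kb. The gene-distant curve (red) runs with the intronic one on the left, and reaches 21.6% at 10 kb and 50.1% at 50 kb on the right.

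Groups of 3 or more gene-distant peaks with gaps of at most 50 kb formed 20 runs, which held 71 of the 487 peaks (14.6%). The runs spanned 5.78 to 92.8 kb (median 32.5 kb), and 14 of them had 3 peaks. In 5 runs the highest fold was 10 or more, and in 6 it was under 5. Neighbouring peaks may have been split by the caller from 1 wider region: 469 gene-distant peaks remained when peaks within 1 kb of each other were merged. Runs were not recounted after merging. The runs of 3 beside Lrrc8c and Mir5130 held neighbours only 0.004 and 0.075 kb apart and would become pairs. Runs beside Irf2bp2, Med13l, Map3k1 and Hes1 also held neighbours within 1 kb. Of the 71 peaks in runs, 5 had a fold of 10 or more (7.04%, 2.33 to 15.7%). This is near the 6.57% of all gene-distant peaks, with 4.39% over the list. Of the 20 runs, 2, on chromosome 18, are counted only.

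The most crowded interval lay between Irf2bp2, which encodes a corepressor that binds IRF2, and Tomm20, a gene of mitochondrial import. It held 10 gene-distant peaks in 2 runs of 3 and 7 over 188 kb (chr8:129186569-129374402), with 811 tags together. The table places no coding gene and 5 long noncoding RNA genes between these landmarks. The strongest peak had a fold of 13.4 (119 tags), followed by folds of 9.31 and 9.27, and the lowest had 3.42. The first run began 67.5 kb from the Irf2bp2 promoter peak, on the upstream side of that gene.

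Between 2410131K14Rik and Med13l, a gene of the Mediator kinase module, 7 peaks lay within 136 kb on chromosome 5, again with no coding gene between. Their folds were 2.98 to 6.33, and the nearer run ended 63.8 kb upstream of the Med13l promoter peak. Upstream of Map3k1, a kinase gene of MAP kinase signalling, 5 peaks spanned 73.5 kb (folds 3.29 to 9.38), starting 121 kb from its promoter peak. Next to Hes1, a target of Notch, 5 peaks spanned 82.9 kb at folds of 3.14 to 4.98, starting 77.7 kb from the flanking Hes1 peak. That run ended 8.04 kb from the peak assigned to Cpn2, which was the nearer landmark for 4 of the 5. In these 3 intervals no peak reached a fold of 10.

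Some runs had 1 strong peak among weaker ones. Between Pabpc1 and Ywhaz, 4 peaks covered 18.2 kb, with a highest fold of 13.3 (169 tags) and 4.85 next. The strong chromosome 15 peak with a fold of 36.5, described above, lies on the other side of Ywhaz. In the run between Myc and Fam49b, 4 peaks spanned 38.9 kb, and the fold of 24.7 stood beside folds of 5.14, 4.39 and 4.17. The most compact run, 3 peaks in 5.78 kb near Atf7ip, had folds of 12.7, 6.01 and 4.56 and lay 26.2 kb from the nearest Atf7ip peak. Next to 1810026B05Rik, 3 peaks spanned 24.2 kb with folds of 7.68, 4.19 and 4.09, and their highest score was 625.5.

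Apart from the run beside Foxo1, given with that gene, the remaining runs outside chromosome 18 had highest folds from 4.03 to 6.70. The run of 3 peaks between Map3k7 and Casp8ap2 had folds of 4.34, 3.71 and 2.63, and another peak of that interval outside the run had 6.31 (88 tags). The table places Bach2, a B-lineage transcription factor gene, and Gja10 between these landmarks. How near the run lies to Bach2 was not analysed here, since the gene table and the peaks use different assemblies. The 3 peaks upstream of Csf1, which encodes a macrophage growth factor, had folds of 4.03, 3.08 and 2.70. Runs beside Ier5 and Psat1 had highest folds of 4.47 and 4.46. Between Lrrc8c and Lrrc8d, 3 peaks in 7.69 kb reached 5.44, and the runs beside Usp12 and Mir5130 reached 6.14 and 6.70. The interval between Uchl3 and Mir5130 held 1 further peak outside its run, with a fold of 11.3.

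**Figure D3:**
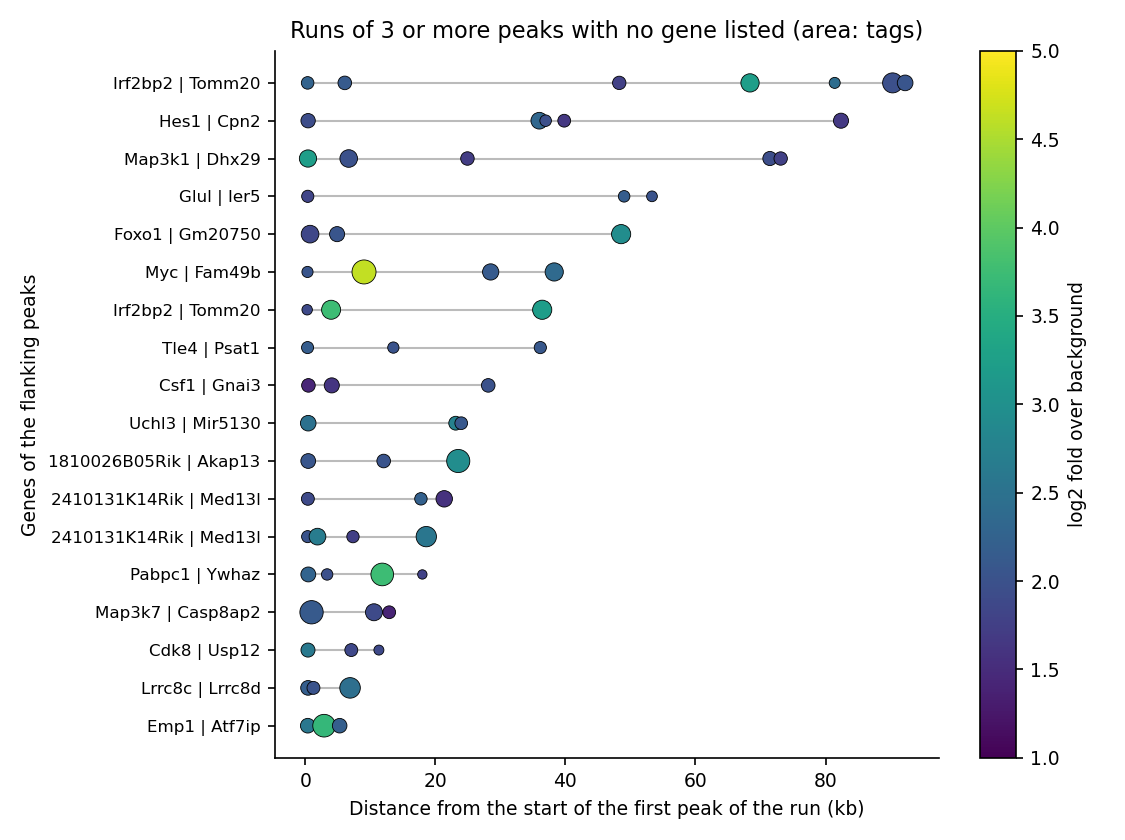
Each row is a run of 3 or more gene-distant peaks outside chromosome 18, labelled by the genes of the flanking peaks. Circles are peaks, placed by distance in kb from the start of the first peak, with area proportional to tags and colour giving log2 of the fold. The longest row spans 92.8 kb with 7 peaks, and the brightest circle is the peak with a fold of 24.7 between Myc and Fam49b.

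A list of 57 genes, mostly B-lineage regulators, receptors and cell cycle genes and including those in the study's title, was searched for among the landmarks. Of these, 45 were the closest gene of at least 1 peak, and 20 flanked at least 1 gene-distant peak. The 40 gene-distant peaks concerned had the listed gene on their nearer side in 20 cases. None was flanked by Rag1, Rag2, Csnk1e or Sox4. For 10 of the 20 genes the strongest adjacent gene-distant peak had a higher fold than the gene's own highest-scoring peak. By score, the highest adjacent gene-distant peak exceeded the gene's own for 8 of the 20. Several peaks can adjoin a gene, so the comparison takes the highest of up to 4. By fold, the gene's own value is that of its highest-scoring peak, which need not be its highest fold. The same comparison was not made over all 643 flanking genes. These counts therefore have no background and are not a result about the listed genes.

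Myb stood first, with 29.4 against 8.70. For Myc the values were 24.7 against 5.15 and for Jarid2, which encodes a PRC2 partner, 19.9 against 4.04, although they lay 1641 and 767 kb from the flanking peaks of these genes. Downstream of Foxo1, a transcription factor gene needed for B-cell development, 4 peaks lay 126 to 369 kb from the promoter peak with no coding gene before the next landmark. Their folds were 3.59, 4.14, 7.67 and 3.74, compared with 3.49 at the Foxo1 promoter. The last of these peaks lay nearer to the Gm20750 peak, at 287 kb. In the interval upstream of Btg1, an antiproliferative gene, the peak at chr10:95836721-95837587 had a fold of 9.58 (90 tags) at 217 kb, compared with 4.44 at the gene. Between Fam49a and Mycn, 3 peaks had folds of 10.3, 3.43 and 6.45, against 5.96 at the highest-scoring peak of Mycn. They lay 518, 387 and 358 kb from the flanking Mycn peak. All were nearer to the Fam49a peak, at 107, 238 and 267 kb. For Runx1, Bcl6, Satb1 and Lmo2 the excess was small, with folds of 4.95, 4.89, 4.30 and 3.95 against 3.76, 3.93, 3.66 and 3.9. The Runx1 peak lay 493 kb from the flanking Runx1 peak and nearer to that of Setd4, at 411 kb. The Bcl6 peak lay 358 kb from that of Bcl6 and 43.4 kb from that of 1110054M08Rik. Those of Satb1, at 329 kb, and Lmo2 had the listed gene on their nearer side. The order turned by score for Btg1 (245 against 304), Satb1 (70.3 against 82.9) and Lmo2 (51.4 against 100.1).

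For the other 10 genes the peak at the gene had the higher fold. A gene-distant peak 121 kb upstream of Ikzf1, the Ikaros gene, had a fold of 3.96 (87 tags) against 7.36 at the promoter. It lay nearer to the Zpbp peak, at 101 kb, and the table places Spata48 and 4930512M02Rik between Zpbp and Ikzf1. Bcl11a had 1 on each side, at 26.9 kb (fold 3.24) and 118 kb (fold 3.53), against 6.22. The 2 peaks upstream of Lef1, at 204 and 85.6 kb, had folds of 3.51 and 3.86 against 5.31. Past the end of Irf8, 3 peaks at 132, 682 and 708 kb had folds of 3.62, 6.90 and 4.39 against 12.5 at the gene. The last 2 lay nearer to the Klhdc4 peak (388 and 363 kb), and the table places 9 coding genes between Irf8 and Klhdc4. Between Fli1 and Ets1, both ETS factor genes, 1 peak lay 70.9 and 81.9 kb from their flanking peaks with a fold of 3.48. Upstream of Foxp1 a pair of peaks 542 bp apart had folds of 3.24 and 4.10. In the interval between Ccnd2, the cyclin D2 gene, and Parp11, 3 peaks had folds of 3.33, 3.42 and 3.60. The last of these lay nearer to the Parp11 peak, at 116 kb against 181 kb. Beside Id3, which encodes an inhibitor of HLH factors, the 1 peak had a fold of 3.59 against 5 at the gene, but the higher score, 149 against 75.5, and 98 against 57 tags. That peak lay 53.6 kb from the flanking Id3 peak and nearer to the Rpl11 peak, at 34.8 kb.

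**Figure D4:**
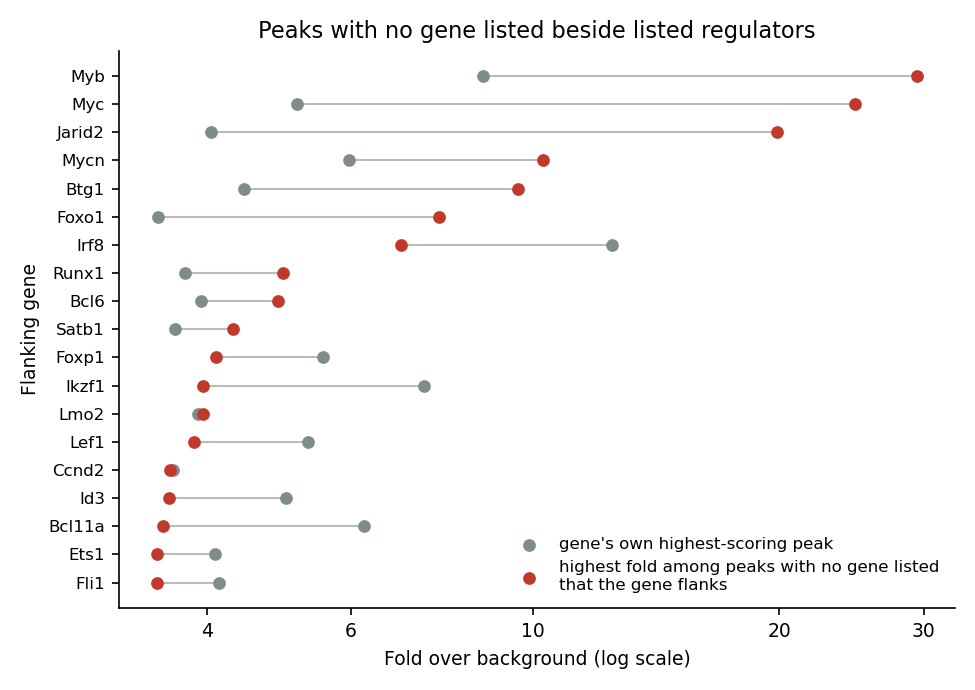
For the listed genes that flank a gene-distant peak, apart from 1 that is not shown, the grey point is the fold of the gene's own highest-scoring peak and the red point the highest fold among the gene-distant peaks it flanks (log scale). Red lies to the right of grey for 10 genes, with Myb at 29.4 against 8.70 and Irf8 the opposite at 6.90 against 12.5. A gene-distant peak shown here can lie nearer to the gene on its other side.

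A few gene-distant peaks of ordinary strength lay in intervals whose landmarks have antigen receptor segments between them. These intervals were picked out after the positions had been seen. No V, D, J or C segment is listed at these peaks. The interval between Serbp1 and Rpia, in which the table places 168 antigen receptor segments, held 4 peaks on chromosome 6. They had folds of 5, 4.85, 6.44 and 3.84 and 43, 51, 56 and 61 tags, and the last, at chr6:70659083-70660031, lay 81.5 kb from the Rpia peak. Between 4930427A07Rik and Zfp386, with 216 segments, 2 peaks lay on chromosome 12 at folds of 3.43 and 3.33 (36 and 70 tags), 59.2 and 152 kb from the 4930427A07Rik peak. The interval between 2210010C04Rik and Ephb6, with 52 segments, held 1 peak at a fold of 4.07 (46 tags). All 7 were below a fold of 10, and their median was 4.07. Whether any of them lies within a receptor locus was not analysed here, since the gene table and the peaks use different assemblies.

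The share of peaks without a gene differed between chromosomes. It was lowest on chromosome 11, with 20 of 797 peaks (2.51%, 1.54 to 3.85%), and highest on chromosome 12, with 34 of 322 (10.6%, 7.42 to 14.4%). These intervals do not overlap each other and lie on opposite sides of the 5.58% over the list. On chromosome X it was 9 of 92 (9.78%, 4.57 to 17.8%), whose interval contains the overall share. Gene density and mappable length of the chromosomes were not analysed here, and their part in these shares was not tested. Of the 34 gene-distant peaks on chromosome 12, 6 had a fold of 10 or more, the most of any chromosome. The shares were 6.57% of all gene-distant peaks and 4.39% of the list. The share over all 322 peaks of chromosome 12 was not computed, so this count is not read as a trait of the chromosome. The median fold of its gene-distant peaks, 4.235, was below that of all gene-distant peaks.

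**Figure D5:**
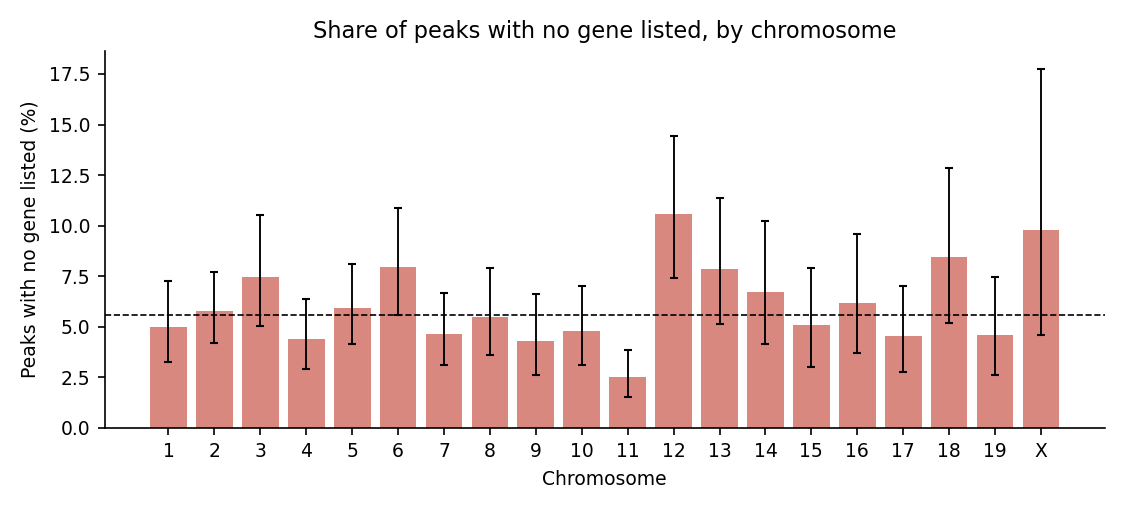
Bars give the percentage of each chromosome's peaks that are gene-distant, with exact 95% intervals, and the dashed line marks the 5.58% over all peaks. Chromosome 11 (2.51%) lies below the line and chromosome 12 (10.6%) above it, with intervals that exclude it.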

How the data were processed

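Chromatin of 1 streptavidin pull-down library (Sox4 bioChIP) was sequenced, and 1 input library exists whose file was not used here. The tools were MACS 1.4.2 and Bowtie 0.12.8 on build mm9, per the submitters' processing notes; parameters, the use of the input as control, and library depths are not given in the sources used here. The deposited tag count is a whole number of reads per peak, not normalized. As a ratio on a linear scale, the deposited fold compares tags with the caller's background. The authors' score was taken to be minus 10 log10 p, since its lowest value lies just above 50. Positions and distances are printed as deposited, and whether starts count from 0 or 1 was not stated. Scores, folds and tags are the authors' own and rank peaks within this list only.

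From these, shares with exact Clopper-Pearson intervals, medians with order-statistic intervals, exact Poisson intervals of tag counts (all 95%), and distances between peak intervals were computed with Python 3.11.15, pandas 2.3.3 and scipy 1.17.1. No test was run, because peaks of 1 library are not replicates. All 643 flanking genes matched the RefSeq table (assembly GRCm38.p6), with 634 matched on accession, 6 on the current symbol and 3 on a former one. That table gave only names, classes and gene order, and RefSeq promoter entries gave strand. Peaks named were the 10 highest by score and by fold, the 5 with most tags, the 5 widest, the 3 lowest by score, runs of 3 or more, and those flanked by a gene of the list, apart from chromosome 18. The procedures were checked on simulated data. The regions, lists and rules were chosen with earlier results of these data known. Alternatives were stricter score and fold limits, merged peaks, summit distances, other fold thresholds, a fixed width range and either column empty. Peak sequences were not analysed here, and 1 gene of the list is counted but not reported by name.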

Additional observations from a re-analysis of the deposited data

How the results depend on the processing

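Of 57 values computed under other settings, 36 stayed within the 95% interval of the reported value or, for the number of peaks, within 1.5 times of it, and 21 did not. Requiring a score of at least 100 left 199 gene-distant peaks (4.32% of the list), with medians of 6 for the fold, 168 for the score and 90 for tags. A fold of 10 was then reached by 16.1%, the nearest other peak lay at 76.3 kb, and 11.1 and 36.7% had another peak within 10 and 50 kb. Requiring a fold of at least 4 gave a median fold of 5.09, a median score of 103, 9.33% at a fold of 10, a spacing of 75.6 kb, and 16.3 and 39.1% within 10 and 50 kb. Both limits remove weak peaks by construction, and the share at a fold of 10 rose in the other classes too. With the score limit it was 14.2% of intronic, 11.4% of upstream and 7.03% of promoter peaks. With the fold limit it was 8.33, 6.76 and 6.11% in the same order. With peaks within 1 kb merged, 15.8% had another peak within 10 kb. At thresholds of 8 and 15 in place of 10, 10.1 and 2.26% of gene-distant peaks passed, against 7.41 and 2.08% of all peaks. No unplaced sequence, chromosome M or chromosome Y occurs in the list, so leaving them out changed nothing. Taking either column as empty selected the same peaks. The 36 values that stayed therefore include some that could not move. The fixed width range for the fold threshold was added after seeing the data. No paired analysis was possible because the series has 1 bioChIP library. Library depth is unknown.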

Other observations

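A few gene-distant peaks lay at the ends of the listed chromosomes, where no further peak with a gene followed. The peak at chr16:3231487-3235537 was the first of its chromosome and the widest gene-distant peak, 4050 bp. Its 425 tags (386 to 467) gave 2.17-fold, which ranked 8729 of 8730, and it scored 66.1. The last peak of chromosome 1, at chr1:197067515-197068243, had 122 tags in 728 bp, or 168 tags per kb, at a fold of 4.25, where the median of gene-distant peaks was 72.5 tags per kb. It was singled out after its values were seen. Of the 74 peaks within 500 kb of the lowest listed position of a chromosome, 4 were gene-distant. Whether repeated sequence lies under these peaks was not tested.

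The most isolated gene-distant peak, also singled out afterwards, was at chr14:94941162-94941838, with 41 tags and a fold of 4.39. Its nearest peak of any kind lay 4503 kb away, at Mzt1, and the next on the other side 14953 kb away, at Sugt1. Another on chromosome 14, at chr14:115347410-115348156 (fold 4.39, 51 tags), lay 91.2 kb from the peak assigned to Mir17, a microRNA gene of the oncogenic miR-17-92 cluster, and 9050 kb from the Spry2 peak on its other side. Both folds were below the median of all gene-distant peaks.

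Crowding was uneven over the genome. The 483 gene-distant peaks with a marked gene on both sides fell into 330 intervals between such genes, of which 234 held 1 peak, 63 held 2 and 4 held 5 or more. Folds of 10 or more occurred at 2 peaks of the interval between Zfp217 and Fam210b (4 peaks, highest 13.5), and at both peaks of the interval between Nup205 and Trim24 described above.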
